A study of Mus musculus with 9 samples.

Results

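The 98 rows described here were the rows of a white adipose tissue RNA-seq table whose level was higher in every library from mice on a normal diet than in any library from mice on a high fat diet, with or without the ligand B-LGND2. They were chosen on these levels, from 15095 rows that averaged at least 5 CPM (the count per 1000000 counts of its library), out of 39130 rows in all. For each row the lowest normal diet value plus 0.1 CPM was divided by the highest high fat diet value plus 0.1 CPM, and the 98 rows with a ratio above 1 were kept. The rule allowed up to 100 rows, and fewer reached it. As the diet difference was the basis of the choice, it is given as a description and not tested.

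The tissue came from male mice of the inbred strain C57BL/6 that had been fed and treated for 9 weeks. There were 3 groups of 3 libraries: normal diet with vehicle, high fat diet with vehicle, and high fat diet with B-LGND2. The series title places B-LGND2 among ligands of estrogen receptor beta. The sources used here do not give the fat depot, the age of the mice, the make-up of the diets or the dose of the ligand. White adipose tissue stores triglyceride and releases fatty acids and hormones such as leptin and adiponectin. Feeding on a high fat diet is known to enlarge its fat cells and to draw in macrophages. Estrogen receptor beta is a nuclear hormone receptor that acts as a transcription factor when bound by its ligand.

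Each row carries a GI number, a retired kind of identifier for sequence records, and neither the table nor the reference tables used here pair these numbers with genes. The members therefore could not be sorted by function, the tissue could not be checked against its marker genes, and no sequence is printed. Members are called by the rank of their ratio, and 4 are given with their number. Total counts lay between 30067542 and 43129222 reads per library. Over the 15095 rows, normal diet replicate 2 stood apart from its group: its log2 CPM correlated at 0.623 and 0.592 with replicates 1 and 3, which correlated with each other at 0.984, and at 0.948 with high fat diet B-LGND2 replicate 1. High fat diet B-LGND2 replicate 2 correlated at 0.793 and 0.790 with the other libraries of its group and at 0.939 with high fat diet vehicle replicate 1. The vehicle libraries of the high fat diet were spread as well. Vehicle replicate 2 correlated at 0.771 and 0.682 with replicates 1 and 3 of its group. Its correlation was 0.888 with normal diet replicate 2, and 0.867 and 0.858 with B-LGND2 replicates 1 and 3. Vehicle replicate 3 correlated at no more than 0.778 with any library. Median diet folds are given with and without each of normal diet replicate 2 and B-LGND2 replicate 2. Counts of rows meeting the rule are also given without normal diet replicate 2. The median difference between B-LGND2 and vehicle, and counts of members without overlap between them, are also given without B-LGND2 replicate 2. Most other values include both libraries. In bulk tissue, fewer cells of a type and less RNA per cell cannot be told apart.

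The member with the largest ratio was GI 149251301. Its level was 29.8, 50.4 and 33.1 CPM in the normal diet libraries, 9.54, 6.80 and 8.18 CPM in the high fat diet vehicle libraries and 6.43, 5.0 and 3.73 CPM in the high fat diet B-LGND2 libraries. The lowest normal diet level was thus 3.11 times the highest high fat diet level, and within the high fat diet the 3 B-LGND2 libraries were all below the 3 vehicle libraries. The group means were 37.8 ± 11.0 CPM (SD, n = 3) on the normal diet, 8.17 ± 1.37 CPM (SD, n = 3) under high fat diet with vehicle and 5.05 ± 1.35 CPM (SD, n = 3) with B-LGND2. Normal diet replicate 2, the library that stood apart, had the highest level of this row.

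The member of rank 2 was at 48.0, 53.2 and 44.1 CPM on the normal diet, at 20.5, 11.6 and 12.9 CPM under high fat feeding with vehicle and at 8.58, 12.8 and 7.56 CPM with B-LGND2. These were the only 2 members with a ratio over 2. The member of rank 3 was at 33.1, 27.5 and 32.9 CPM on the normal diet, at 13.1, 15.8 and 15.7 CPM with vehicle and at 17.3, 11.1 and 17.7 CPM with B-LGND2. Its high fat diet groups overlapped, and its means of 14.9 CPM with vehicle and 15.4 CPM with B-LGND2 were close to each other. The member of rank 4 was at 20.8, 25.3 and 16.8 CPM on the normal diet, at 11.5, 6.97 and 6.68 CPM with vehicle and at 7.37, 3.42 and 3.90 CPM with B-LGND2. Here, too, the high fat diet groups overlapped, in that B-LGND2 replicate 1 lay above 2 of the vehicle libraries.

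The member of rank 6 was of another order of abundance, at 15990, 15730 and 18052 CPM on the normal diet, 11728, 6540 and 3416 CPM under high fat feeding with vehicle and 5308, 2594 and 4843 CPM with B-LGND2. The 3 vehicle libraries of this row were spread over a wide range, and the B-LGND2 libraries lay within or below it. The member of rank 7 was at 12.1, 21.8 and 13.7 CPM on the normal diet, 9.19, 8.15 and 3.59 CPM with vehicle and 5.59, 1.84 and 3.13 CPM with B-LGND2. The member of rank 8 was at 134.5, 82.9 and 142.0 CPM on the normal diet, against 32.7, 57.9 and 54.6 CPM with vehicle and 63.2, 52.1 and 59.8 CPM with B-LGND2. In this row normal diet replicate 2 was the lowest of its group and set the ratio. Rank 9 was at 29.0, 26.9 and 32.8 CPM on the normal diet, at 19.4, 20.6 and 20.3 CPM with vehicle and at 17.5, 17.6 and 13.6 CPM with B-LGND2. Rank 10 was at 42.9, 30.3 and 33.0 CPM on the normal diet, at 23.4, 5.61 and 10.8 CPM with vehicle and at 6.75, 15.7 and 3.20 CPM with B-LGND2. In rank 10 the highest libraries of the 2 high fat diet groups were vehicle replicate 1 and B-LGND2 replicate 2. Their correlation of 0.939 was the highest between any vehicle library and any B-LGND2 library of the high fat diet. B-LGND2 replicates 1 and 3 correlated at 0.981.

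**Figure D1:**
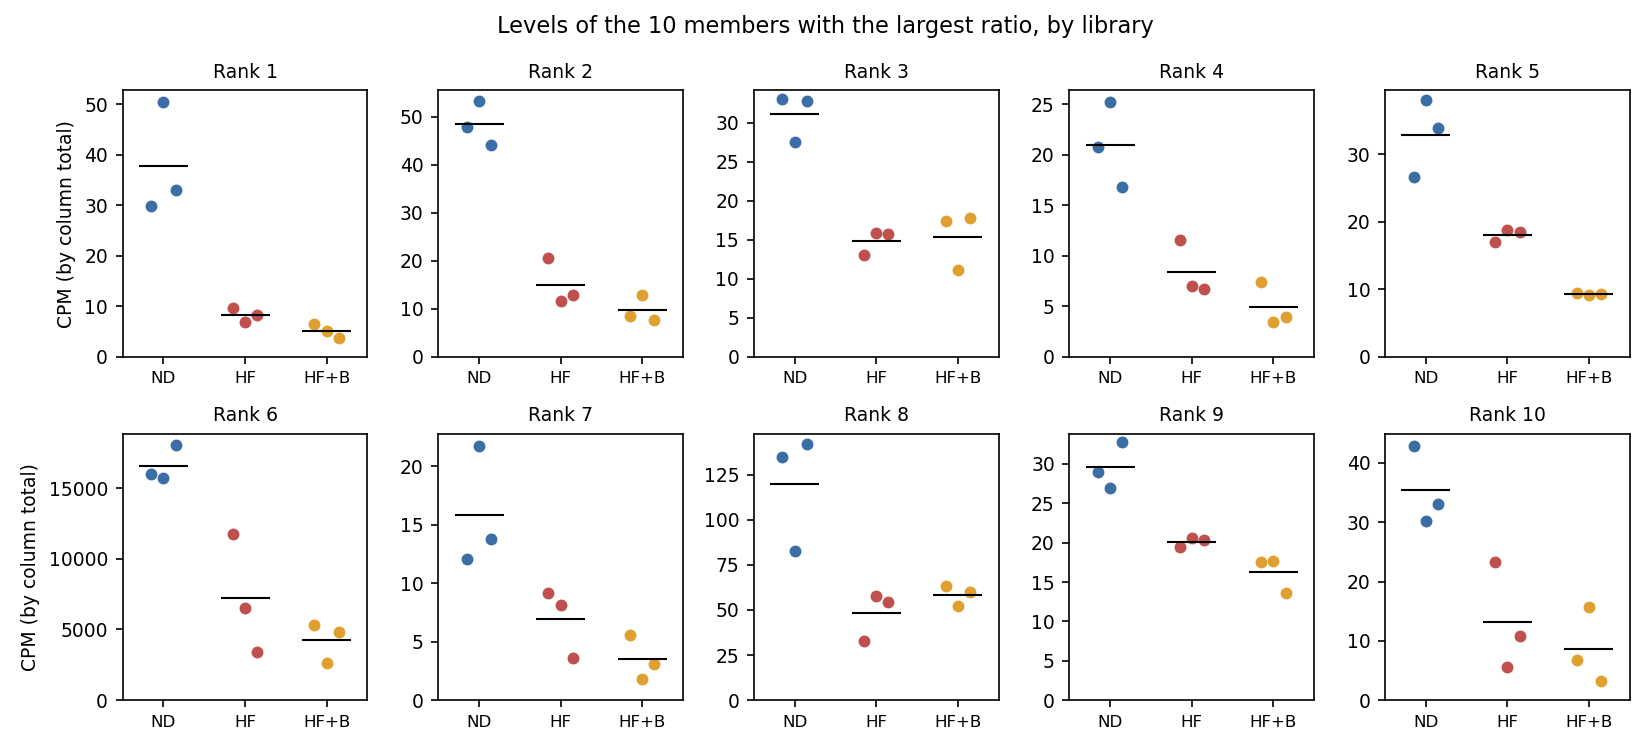
CPM by column total (y axis, from 0) of the 10 members with the largest ratio in the libraries of the normal diet vehicle (ND), high fat diet vehicle (HF) and high fat diet B-LGND2 (HF+B) groups; points are libraries in the order of replicates 1 to 3 and lines are group means. By the rule every ND point lies above every HF and HF+B point, and the ratio of the lowest ND to the highest high fat diet point is largest in rank 1, at 29.8 against 9.54 CPM.

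Beyond these rows the gap between diets was narrow. The ratio was over 1.5 in 3 members, over 1.2 in 17 and over 1.1 in 32, with a median of 1.06. From the counts of the 2 libraries that set each ratio, the exact 95% interval (Clopper-Pearson) included 1 in 57 members and lay above 1 in 41. Of the 32 members with a ratio over 1.1, it included 1 in 5. These intervals cover counting error only, and they take reads as independent, which PCR copies are not. They leave out the spread between libraries and the picking of the lowest and highest library. At the edge of the set the member of rank 98 had 17.41 CPM in its lowest normal diet library and 17.40 CPM in its highest high fat diet library, and the first row outside had 73.07 against 73.11 CPM, a ratio of 0.999.

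Group means were further apart than the libraries that set the ratio, which follows from taking the lowest and highest library. The mean on the normal diet was 1.43 times that under high fat feeding with vehicle in the median member (quartiles 1.27 and 1.73), with a range from 1.099 to 4.62, and at least 2 times in 15 members. Against the high fat diet with B-LGND2 the median was 1.37 (quartiles 1.19 and 1.83), with a range from 1.053 to 7.48, and at least 2 times in 20 members. With normal diet replicates 1 and 3 alone the medians were 1.43 and 1.39. With B-LGND2 replicates 1 and 3 alone the second median was 1.38. These folds use CPM by library total. On the scale of trimmed means of log ratios (TMM, which sets library sizes from the bulk of rows) the median log2 difference between high fat diet vehicle and normal diet was -0.78 in the members and 0.05 in all 28831 tested rows. By total counts the same medians were -0.54 and 0.29, so that total counts moved the whole distribution by over 0.1.

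**Figure D2:**
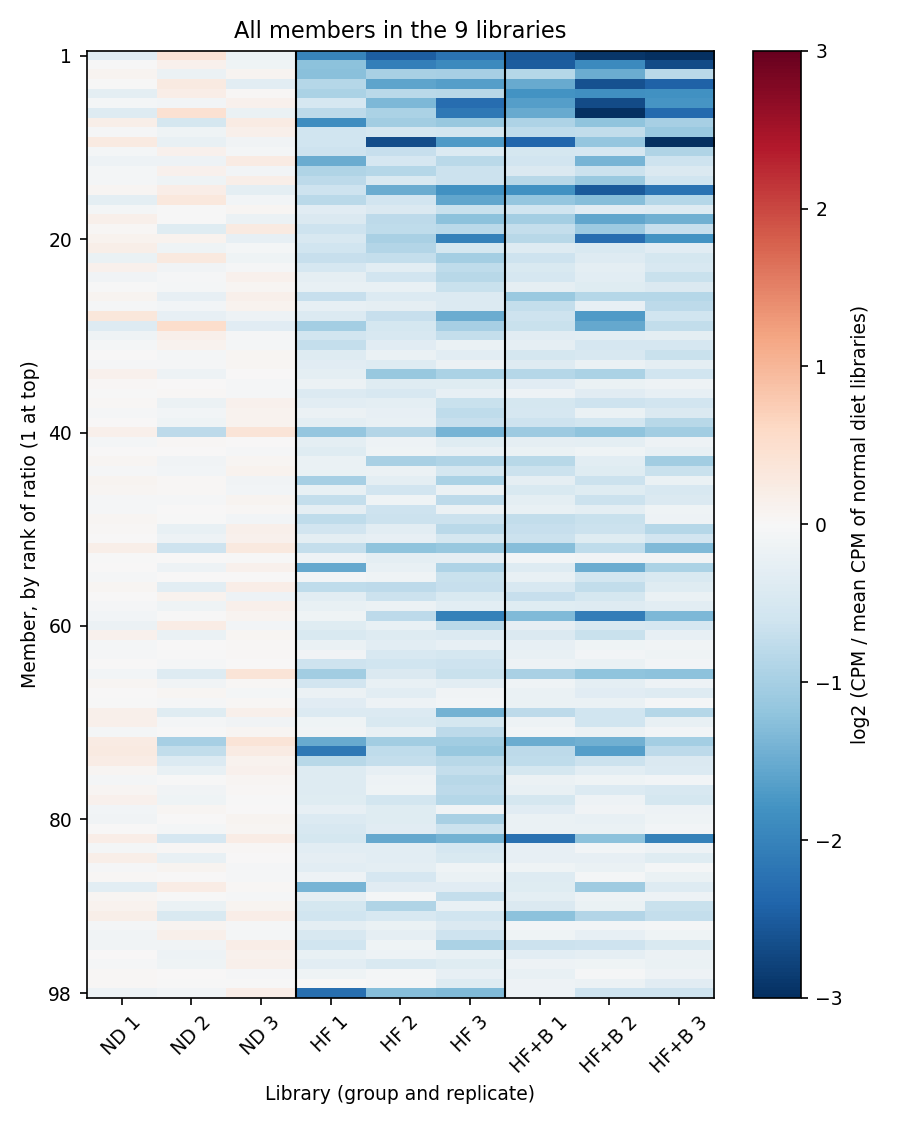
Colour gives log2 of the CPM of each member (98 rows, y axis, rank 1 at the top) in each of the 9 libraries (x axis; ND normal diet vehicle, HF high fat diet vehicle, HF+B high fat diet B-LGND2) relative to its mean over the ND libraries. Rows near the top are the darkest in the high fat diet columns, and most rows below rank 32, where the ratio was at most 1.1, are pale.

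The members ranged in abundance from a mean of 5.14 to 28253 CPM over the 9 libraries, with a median of 35.1 CPM against 24.4 CPM over the 15095 rows. There were 32 members under 20 CPM, 18 with at least 100 CPM and 4 with at least 1000 CPM. The lowest count of any member in any library was 56 reads. All 98 passed the filter on low counts. No members had identical counts in every library.

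Most of the reads of the set came from 2 rows. The members together took 6.96%, 6.91% and 7.75% of all counts in the normal diet libraries, 6.01%, 3.97% and 2.11% under high fat feeding with vehicle and 3.02%, 2.02% and 2.97% with B-LGND2. The most abundant member, of rank 59, alone took 4.19%, 4.34% and 4.69% on the normal diet, 4.04%, 2.54% and 1.08% with vehicle and 1.76%, 1.04% and 1.74% with B-LGND2. Its level in high fat diet vehicle replicate 1 was just below the normal diet libraries, and replicate 3 of that group was at the level of the B-LGND2 libraries. The second most abundant, the member of rank 6 described above, followed the same order of libraries within the vehicle group. The other 96 members took 1.17%, 0.995% and 1.26% on the normal diet, 0.802%, 0.779% and 0.685% with vehicle and 0.728%, 0.717% and 0.747% with B-LGND2. Without the 2 most abundant rows the high fat diet groups were thus at 0.755 ± 0.062% (SD, n = 3) and 0.731 ± 0.015% (SD, n = 3), and the normal diet was at 1.14 ± 0.13% (SD, n = 3).

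**Figure D3:**
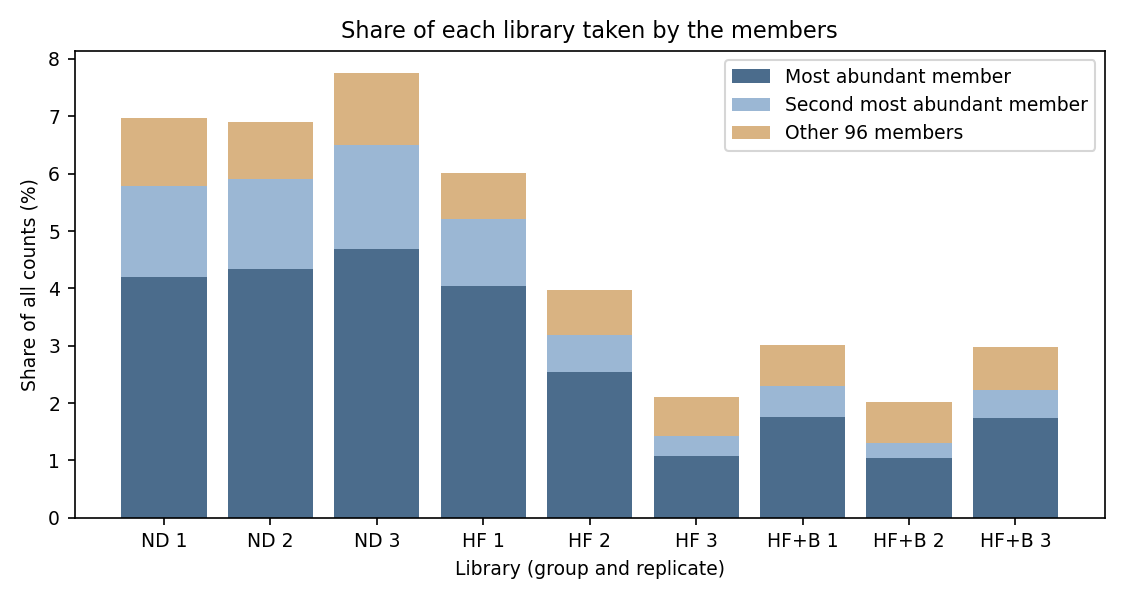
Share of all counts (%, y axis, from 0) taken by the members in each library (x axis; ND normal diet vehicle, HF high fat diet vehicle, HF+B high fat diet B-LGND2), split into the most abundant member, the second most abundant and the other 96. The total is 6.91 to 7.75% in the ND libraries and 2.02 to 6.01% in the others, and the most abundant member makes up most of it in every ND library.

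Within groups the members varied less than other rows. The median coefficient of variation was 9.52% on the normal diet, 14.9% under high fat feeding with vehicle and 10.1% with B-LGND2, against 28.7%, 27.7% and 17.3% over the 15095 rows. A rule that asks for no overlap favours rows with little spread, so this is no finding. Normal diet replicate 2 was within 1.25-fold of the mean of replicates 1 and 3 in 73.5% of members and in 27.2% of the 15095 rows. The rule left out rows in which any normal diet library fell to a high fat diet level, so part of this difference was built in. Within its group replicate 2 was the lowest library in 46 members and the highest in 27. Replicate 1 was the lowest in 30 and replicate 3 in 22. Of the 115 abundant rows that were nearly absent from this library (at least 100 TMM-scaled CPM in replicates 1 and 3 and at most 1 in replicate 2), 0 were members. Such a row could be a member only if every high fat diet library were lower still, so this is no finding. These rows took 10.8% and 11.3% of counts in normal diet replicates 1 and 3. They were nearly absent from B-LGND2 replicates 1 and 3 as well, at 0.0168% and 0.0156%. On the high fat diet the highest library, which also set the ratio, was a vehicle library in 59 members and a B-LGND2 library in 39. Vehicle replicate 2 held this place in 29 members, vehicle replicate 1 in 23 and B-LGND2 replicate 3 in 21, against 7 for vehicle replicate 3. Vehicle replicate 3 was the lowest of the 6 in 32 members. The highest and lowest high fat diet libraries differed at least 2-fold in 18 members and 1.46-fold in the median member.

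The size of the set depended on how libraries were scaled and on 1 library. By library totals 98 rows, or 0.649% of the 15095, had all normal diet libraries above all high fat diet libraries, and 796, or 5.27%, had them all below. With TMM scaling the balance turned: 597 rows were above and 198 below. With size factors by the median of ratios, 713 were above and 156 below. All 98 members met the rule on TMM-scaled CPM, and 60 of them were among the 100 largest ratios there. Without normal diet replicate 2 there were 2125 rows above and 4504 below by library totals, and the 98 members were among the 2125. Without high fat diet vehicle replicate 2 there were 198 above and 1314 below. Leaving out any other library gave 110 to 145 above and 832 to 1129 below. Fewer libraries set fewer conditions, so a higher count is built into leaving one out. The counts in each direction are not tested here.

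**Figure D4:**
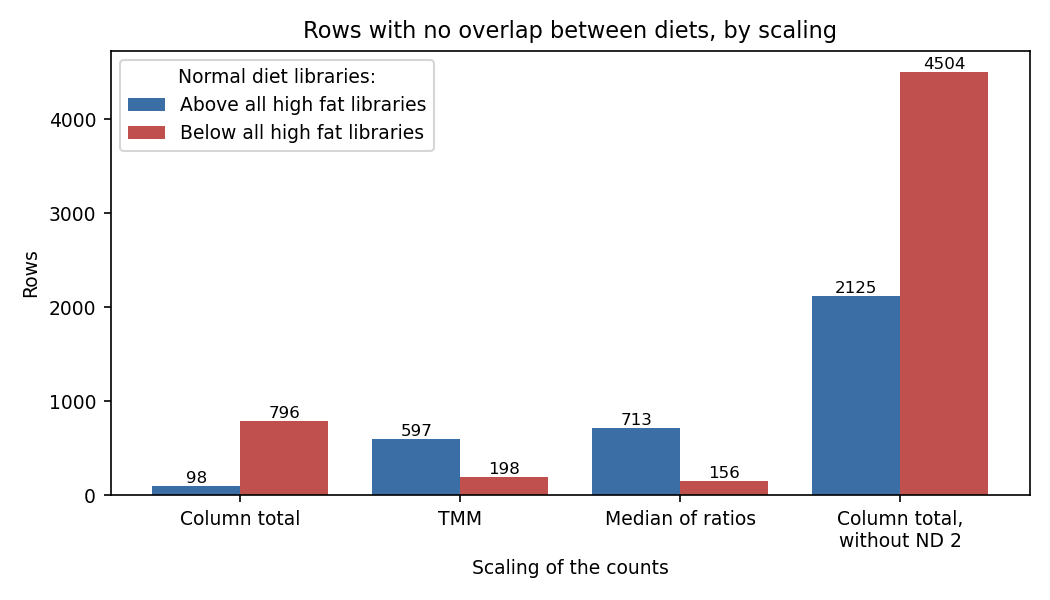
Number of rows (y axis, from 0) averaging at least 5 CPM in which the normal diet libraries were all above or all below the high fat diet libraries, for 3 scalings of the counts and for column totals without normal diet replicate 2 (ND 2). The order of the paired bars reverses between scalings. By column totals 98 rows had the normal diet libraries all above and 796 all below, and by TMM 597 and 198.

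The rule treated the vehicle and B-LGND2 libraries of the high fat diet alike and did not use the difference between them. It did hold all of them below the lowest normal diet library. A row that any B-LGND2 library carried above that level was left out. The comparison of B-LGND2 with vehicle therefore describes the rows that were kept. It cannot say whether the ligand restored rows lowered by the diet. Limma-voom, fitted over all 9 libraries and 28831 rows, called 0 members higher and 0 lower under the ligand at an adjusted p under 0.05, where 0% of all tested rows were called in each direction. The smallest adjusted p among the members was 0.815, and 0.0659 among all tested rows. At an unadjusted p under 0.05 there were 2 members higher (2.04%) and 1 lower (1.02%), against 3.5% and 1.69% of all tested rows and 5.01% and 0.782% of rows with at least 5 CPM. With limma-trend 0 members were called in either direction, where 1 of all tested rows (0.00347%) was called higher and 0 lower. These p-values measure the spread between libraries, since the labels do not say how libraries and animals correspond.

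The fitted log2 difference between B-LGND2 and vehicle had a median of 0.09 over the members, -0.05 over all tested rows and 0.07 over rows with at least 5 CPM. Without B-LGND2 replicate 2 the median was 0.13 over the members and -0.06 over all tested rows. With all 9 libraries the difference ran from -0.94 to 1.23 over the members, and was above 0 in 62 members and below 0 in 36. In CPM by library total the B-LGND2 mean was above the vehicle mean in 51 members and below it in 47, and within 1.25-fold of it in 78. It was at least 1.25 times the vehicle mean in 5 members and at most 0.8 times in 15. Among the 10 members with the largest ratio the fitted difference was below 0 in 8, with a median of -0.63, and among the other 88 it was below 0 in 28, with a median of 0.10. This split follows a ratio that was set on the same libraries and carries no test.

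**Figure D5:**
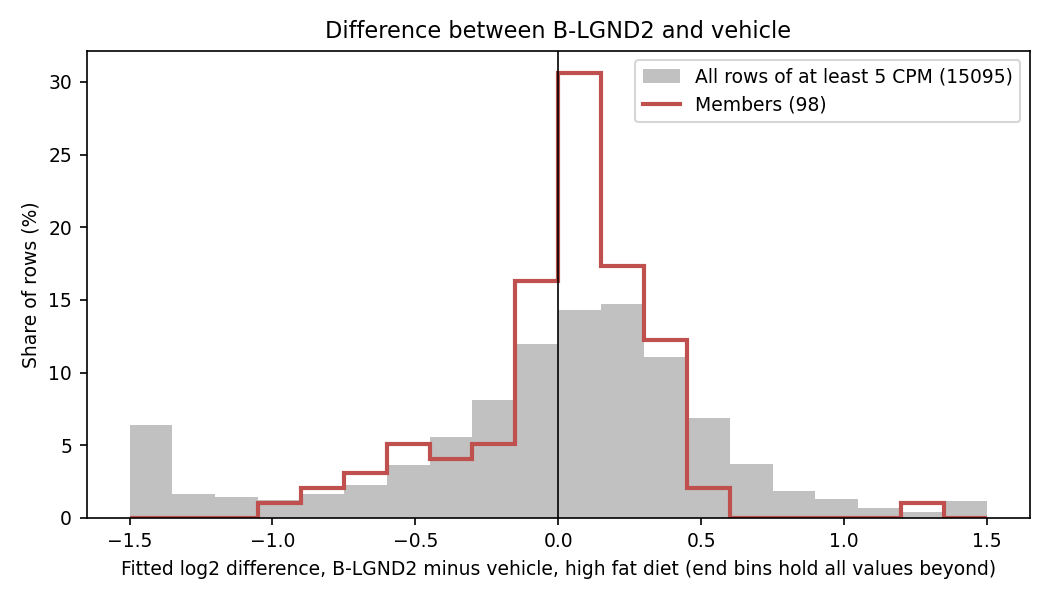
Share of rows (%, y axis) by fitted log2 difference between B-LGND2 and vehicle on the high fat diet (x axis, bins of equal width, end bins holding all values beyond), for the 98 members (line) and the 15095 rows with at least 5 CPM (filled). Members lie between -0.94 and 1.23 with a median of 0.09, close to the median of 0.07 of the filled distribution.

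The B-LGND2 libraries were all above the vehicle libraries in 12 members (12.2%) and all below in 7 (7.14%), in CPM by library total. The same held for 11.2% and 4.68% of the 15095 rows, and for 7.76% and 6.27% of all tested rows. The shares of the members were near these backgrounds. As the rule capped these same libraries, no conclusion is drawn from that. Leaving out 1 high fat diet library gave 13 to 19 members higher and 9 to 22 lower. That was 13.3% to 19.4% and 9.18% to 22.4%, against 12.1% to 21.2% and 5.39% to 17.5% of the 15095 rows. The highest count of 22 lower members came without vehicle replicate 3 (22.4%, against 8.94% of the 15095 rows). Without B-LGND2 replicate 2 there were 19 higher and 13 lower (19.4% and 13.3%, against 21.2% and 17.5%), without vehicle replicate 2 there were 19 higher (19.4%, against 21.0%), and without B-LGND2 replicate 1 there were 12 lower (12.2%, against 5.80%).

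The member with the smallest p among those lower with B-LGND2 was GI 142372316, of rank 5. It was at 26.7, 38.0 and 33.8 CPM on the normal diet, 17.0, 18.8 and 18.4 CPM under high fat feeding with vehicle and 9.51, 9.17 and 9.32 CPM with B-LGND2. The 3 groups formed 3 separate levels, with the lowest under both high fat diet and ligand. On the log2 scale B-LGND2 minus vehicle came to -0.88 ± 0.24 (SE). The limma-voom adjusted p was 0.815, in a range of 0.324 to 1 over 15 alternatives.

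Among members higher with B-LGND2 the smallest p belonged to GI 142351323, of rank 98. It was at 17.4, 18.4 and 22.3 CPM on the normal diet, 4.06, 7.95 and 7.68 CPM under high fat feeding with vehicle and 17.4, 12.6 and 12.5 CPM with B-LGND2. B-LGND2 replicate 1 reached the lowest normal diet library to within counting error, so this row met the rule by its last digit while the vehicle libraries lay far lower. Its log2 difference was 1.23 ± 0.33 (SE), at a limma-voom adjusted p of 0.815 (range 0.324 to 1 over the alternatives). The next was GI 115311548, of rank 64, at 18.0, 17.5 and 18.2 CPM on the normal diet, 11.6, 11.8 and 11.7 CPM with vehicle and 16.1, 15.5 and 17.0 CPM with B-LGND2. Its libraries were tightly grouped, and those with B-LGND2 lay nearer to the normal diet than to vehicle. Its log2 difference was 0.54 ± 0.17 (SE), at a limma-voom adjusted p of 0.815 (range 0.324 to 1). In neither row did the difference between B-LGND2 and vehicle pass the test. For the member of largest ratio, GI 149251301, it was -0.65 ± 0.36 (SE), at a limma-voom adjusted p of 0.815 (range 0.492 to 1).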

How the data were processed

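Poly(A) RNA from 9 samples was sequenced on an Ion Torrent Proton, per the labels' protocols. STAR 2.5.2 and mm9 appear in the submitters' processing notes, with no role stated. The counting tool, annotation and strand setting were not given in the sources used here. Rows of near-identical, overlapping or antisense sequences may share reads and are uncertain. The deposited values are read counts per GI number, whole numbers with no normalization by the authors. A quasi-likelihood count test was planned. The automated unit check could not read this file's numeric column names, so limma-voom, the substitute fixed with it, was used (limma 3.58.1, R 4.3.3; two-sided, Benjamini-Hochberg over all rows, threshold 0.05). The other count models planned as alternatives were not run. A row was tested if 3 or more libraries reached the CPM that 10 counts give at the median library size, and its total reached 15 counts. TMM trimmed fractions of 0.3 and 0.05. The code was tested on simulated counts. The members and lists were chosen with earlier results of these data known. Numbers were printed for the member of largest ratio, the member with the smallest p lower and the 2 with the smallest p higher with B-LGND2. Figures were drawn with matplotlib 3.10.9.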

Additional observations from a re-analysis of the deposited data

How the results depend on the processing

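The 0 calls in each direction for B-LGND2 against vehicle stayed at 0 in all 15 alternative fits of the members, and the 4 named members kept their direction and side of the threshold in all 15. Among all tested rows these fits called 0 to 1 higher (at most 0.00649%) and 0 to 8 lower (at most 0.0278%). The 8 were called without normal diet vehicle replicate 2. With only the 6 high fat diet libraries 3 rows (0.0107%) were called lower. The median log2 difference of the members lay between -0.03 and 0.17 over 21 alternatives, all within the spread of 0.19 between libraries, so its sign is not settled. Membership counts moved most. The rule gave 597 rows with TMM scaling and 713 with median of ratios, and the mirrored rule 198 and 156. With a minimum mean of 1 CPM and of 20 CPM the mirrored rule gave 1453 and 338. Leaving out each library gave 110 to 2125 rows for the rule and 832 to 4504 for the mirrored rule, the highest without normal diet vehicle replicate 2. Members with no overlap between B-LGND2 and vehicle numbered 6 higher with a minimum mean of 1 CPM, 6 higher with TMM scaling and 3 lower with a minimum of 20 CPM; leaving out each high fat diet library gave 13 to 19 higher and 9 to 22 lower. The cause of these moves was not tested. The rule with median of ratios and the counts of rows with a library left out were chosen after seeing the data. DESeq2 and edgeR were not run. At 56 reads or more per member and library, depth limits chiefly the ratios near 1. No paired analysis was possible because the labels give the libraries no shared replicate numbers.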
